A study of Felis catus with 25 samples.

Results

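The matrix metalloproteinases (MMP), the ADAM and ADAMTS proteinases and the tissue inhibitors of metalloproteinases (TIMP) were followed in fibroblasts cultured from the cornea of the cat (Felis catus), across 5 states. The families were picked with earlier results of these data known, and the members within them by gene symbol alone. The symbols were MMP, ADAM or ADAMTS followed by a number, or TIMP followed by a digit, with the ADAMTS-like genes left out. This gave 56 of the 13949 genes in the count tables, namely 20 MMP, 14 ADAM, 19 ADAMTS and 3 TIMP genes. A count was found for 53 of them in any library, and 40 passed the filter on low counts and were tested (12 MMP, 10 ADAM, 16 ADAMTS and 2 TIMP). Polyadenylated RNA was sequenced from 25 libraries, 5 in each group. The labels describe fibroblasts plated on collagen-coated dishes. All groups but FB had first been given transforming growth factor beta 1 (TGFb1) at 1 ng/ml for 2 days, which turns corneal fibroblasts into contractile myofibroblasts. In TrogGW, TGFb1 was removed on day 2 and the cells were kept for 3 days with 7.5 uM troglitazone, a ligand of the nuclear receptor PPAR-gamma, and 10 uM GW9662, an antagonist of that receptor. UK was handled alike with 30 uM UK-5099, which blocks pyruvate uptake into mitochondria, and Trog with 7.5 uM troglitazone. TGFb was harvested on day 2 at the end of the TGFb1 exposure, and FB was harvested untreated on day 0, when the cells were quiescent per the labels. No library from day 2 without TGFb1 or from day 5 without a drug was analysed here. In comparisons of day-5 cells with TGFb or FB, the drug, the removal of TGFb1 and the time therefore cannot be told apart. In TGFb against FB, TGFb1 and the 2 days of culture cannot be told apart either. Replicates are described as biological, but whether they came from different cultures or animals is not stated, and p-values therefore cover only the spread among these libraries.

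MMPs cut collagens and other matrix proteins, either as secreted enzymes or, for the membrane types, at the cell surface. TIMPs bind and block their active site, and TIMP2 also takes part in the activation of pro-MMP2 by MMP14. ADAMTS enzymes are secreted and are grouped by substrate. The hyalectanases cut aggrecan and versican, the procollagen N-proteinases trim fibrillar procollagens, and others act on fibrillin microfibrils or on cartilage oligomeric matrix protein. Most ADAMs are membrane proteins that shed the ectodomains of growth factors and receptors, and a few have no working active site. In the corneal stroma these families are known for matrix breakdown and remodelling after injury. The values below are levels of mRNA, and protein amount, activation and inhibition were not measured.

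The libraries held 14.8 to 25.2 M counts. Values are CPM, counts divided by the TMM-scaled library total in M, and are not divided by gene length, so levels are compared between libraries and not between genes. In bulk RNA, fewer cells that express a gene and less of its RNA per cell cannot be told apart. UK replicate 5 stood apart. Across genes its log2 values correlated at 0.837 to 0.855 with the other UK libraries, where no other pair of the same group was below 0.991. UK results are also given without it where it changes them. Of 9 fibroblast and keratocyte markers 8 were in the files, 7 passed the filter and none was at 0 in any group. Their summed level was 1260 to 2910 CPM in TrogGW, 90400 to 130000 CPM in UK, 2990 to 4760 CPM in Trog, 92000 to 111000 CPM in TGFb and 65800 to 80200 CPM in FB. COL1A1 alone averaged 815 CPM in TrogGW, 65000 in UK, 1130 in Trog, 61400 in TGFb and 43700 in FB. COL1A2, DCN and LUM were also lowest in TrogGW, whereas PDGFRA, PDGFRB, THY1 and ALDH3A1 were not. PDGFRB averaged 176 CPM in TrogGW, 179 in UK, 387 in Trog, 107 in TGFb and 176 in FB. PDGFRA averaged 198 CPM in TrogGW, 245 in UK, 88.3 in Trog, 146 in TGFb and 131 in FB. The summed level thus does not stand for each marker. The part of these differences between the groups in the results below was not tested. All 4 myofibroblast markers passed the filter, with a summed level of 84.2 to 212 CPM in TrogGW, 3910 to 12500 in UK, 564 to 888 in Trog, 14100 to 15500 in TGFb and 3970 to 4450 in FB. Of these, ACTA2, the smooth muscle actin, averaged 9.38 CPM in TrogGW, 3410 in UK, 270 in Trog, 9000 in TGFb and 1940 in FB. Of 10 immune cell markers 9 were in the files and 4 passed the filter, with PTPRC, AIF1 and CD163 at 0 in every group. Their summed level was 26.2 to 30.7 CPM in TrogGW, 26.1 to 38.8 in UK, 32.7 to 39.7 in Trog, 20.2 to 28 in TGFb and 11 to 13.4 in FB. Of 10 corneal epithelial markers 6 were in the files and 3 passed the filter, with the keratins KRT3 and KRT12 at 0 in every group. Their summed level was 3.52 to 6.13 CPM in TrogGW, 0.637 to 3.75 in UK, 1.98 to 3.08 in Trog, 4.2 to 6.07 in TGFb and 8.02 to 10.7 in FB. EPCAM was highest in FB, at 9.24 CPM, and PAX6 and DSP in TrogGW, at 2.08 and 0.75 CPM.

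The range over the 5 states differed between members. The highest group mean was at least 10-fold above the lowest for 17 of the 40 tested members and under 2-fold above it for 3 (ADAM9, ADAM10 and ADAMTS7), with extremes of 306-fold for ADAMTS15 and 1.31-fold for ADAMTS7. How many of all tested genes reach 10-fold was not counted, so the range is not set against that of other genes. The highest mean lay in TrogGW for 11 members, in UK for 14, in Trog for 5, in TGFb for 7 and in FB for 3. Without UK replicate 5 these numbers were 10, 16, 5, 7 and 2 in that order. Together the 56 members took 0.915% ± 0.0606 of the counts in TrogGW, 0.886% ± 0.104 in UK, 1.15% ± 0.0553 in Trog, 0.567% ± 0.0183 in TGFb and 0.472% ± 0.00702 in FB (SD, n = 5 each). The heat map of the tested members shows each family holding genes of opposite pattern.

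**Figure D1:**
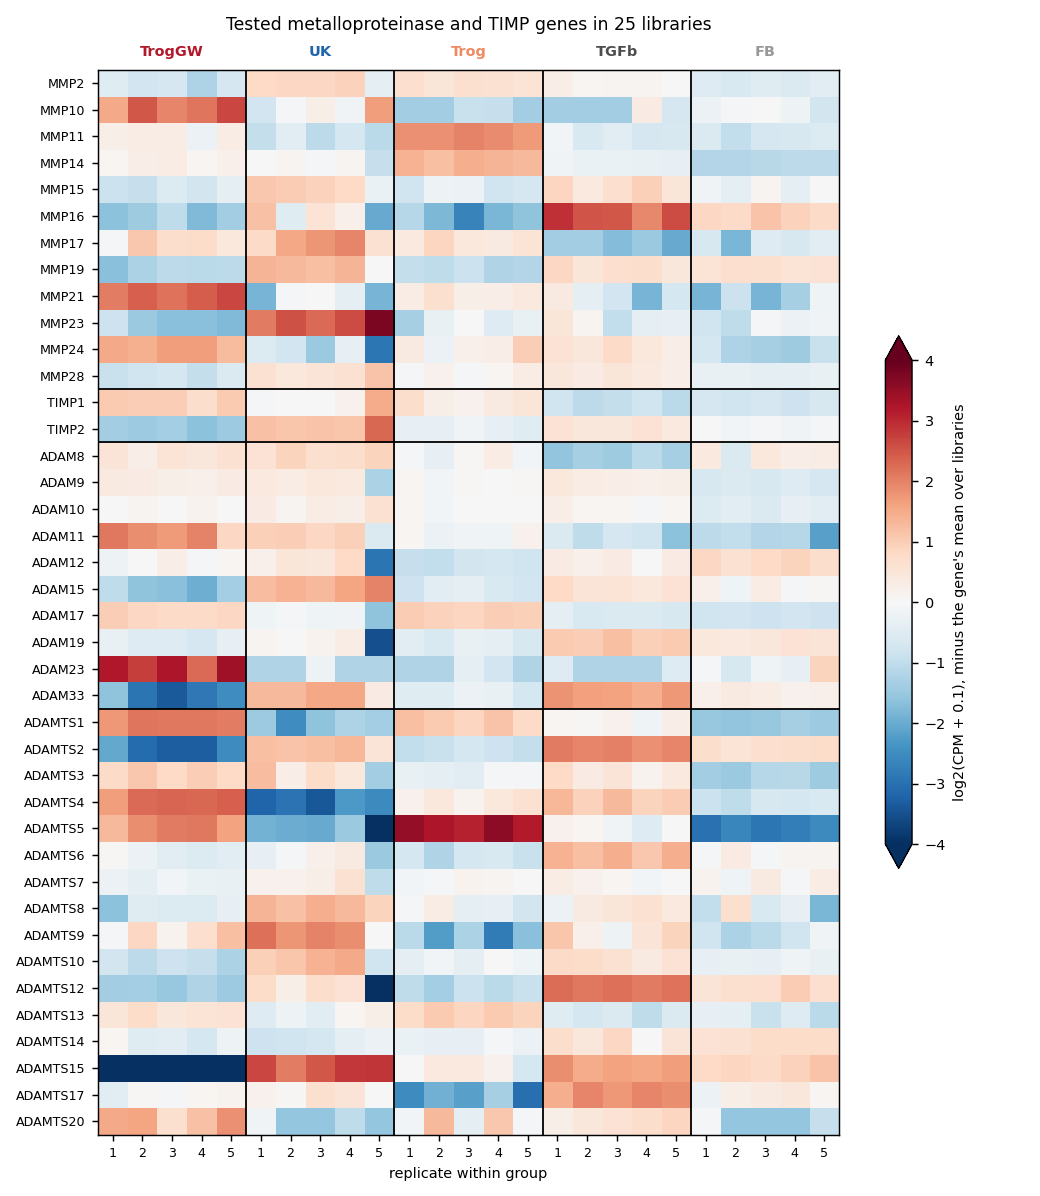
Heat map of the 40 tested members (rows, by family) in the 25 libraries (columns, by group and replicate number). Colour is log2(CPM + 0.1) minus the mean of that gene over all libraries, from blue (lower) to red (higher), with the scale ending at 4 on either side. ADAMTS15 is dark blue in TrogGW, ADAMTS5 is dark red in Trog and blue in UK and FB, and UK replicate 5 departs from its group for many members.

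Most of the tested members were higher in TGFb than in FB. In TGFb against FB, 25 of the 40 rose and 5 fell at an adjusted p under 0.05 (edgeR's quasi-likelihood F test, Benjamini-Hochberg adjustment over all 10699 tested genes), where 68.2% of all tested genes were called. Called higher were 32.9% of all tested genes and called lower 35.3%. The median log2 fold change was 0.73 over the members and -0.02 over all genes. Of the 16 ADAMTS genes 12 rose and 0 fell, of the 12 MMP genes 6 rose and 1 fell, and of the 10 ADAM genes 6 rose and 3 fell. The split was 23 higher and 9 lower when scaled by library totals alone, and 23 and 1 in a fit of all 25 libraries. Among members whose TGFb mean reached 1 CPM, the largest gains were those of ADAMTS5 (2.76 ± 0.14, ± being an approximate SE of a log2 fold change throughout) and ADAMTS4 (1.89 ± 0.113), both aggrecanases, followed by ADAMTS3 (1.79 ± 0.122), a procollagen N-proteinase, and MMP24 (1.77 ± 0.226), a membrane-type MMP. This SE can be too small where a group holds few counts.

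The families split between Trog and TGFb. In Trog against TGFb 12 members rose and 20 fell, where 81.7% of all tested genes were called (42.4% higher and 39.3% lower), and the split was 17 and 13 with library totals alone. ADAMTS5 (3.40 ± 0.109), MMP17 (2.54 ± 0.302), MMP11 (2.33 ± 0.0931), ADAMTS13 (1.69 ± 0.19) and MMP14 (1.60 ± 0.0608) led the members that rose. ADAMTS17 (-4.72 ± 0.323), MMP16 (-4.71 ± 0.248), ADAMTS12 (-3.22 ± 0.0795) and ADAMTS2 (-2.83 ± 0.0641) led those that fell. In TrogGW against TGFb 17 rose and 20 fell, where 85.9% of all tested genes were called (46.6% higher and 39.3% lower), with 22 and 14 by library totals alone. In UK against TGFb 10 rose and 11 fell, where 32.1% of all tested genes were called (16.9% higher and 15.2% lower). That last split was 14 and 10 by library totals alone and 19 and 13 without UK replicate 5, where 71.3% of all genes were called. These 3 comparisons share the TGFb libraries. Scaling by library totals alone moved the all-gene median of the log2 fold change to 0.94 in TrogGW against TGFb, 0.73 in Trog against TGFb, 0.31 in UK against TGFb and -0.39 in TGFb against FB, against values between -0.02 and 0.09 with TMM scaling. Set against FB, 19 members rose and 17 fell in TrogGW (85.2% of all tested genes called, 43.6% higher and 41.6% lower, with a member split of 21 and 12 by library totals alone), 20 rose and 2 fell in UK (39.6% called, 20.4% higher and 19.3% lower, with a member split of 23 and 5 and 77.7% of all genes called without UK replicate 5) and 18 rose and 17 fell in Trog (81.9% called, 41.1% higher and 40.8% lower).

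Between the day-5 groups TrogGW and Trog, which differ in GW9662, 31 of the 40 members were called, 16 higher and 15 lower in TrogGW, where 69.5% of all tested genes were called (35.1% higher and 34.3% lower). The median absolute log2 fold change was 0.95 over the members and 0.35 over all genes, and 19 members were called with at least a 2-fold change, against 15.3% of all tested genes. With a minimum count of 50, which left 32 members to test, the split was 10 and 15. Beside ADAM23 and MMP10, which had 3 and 2 counts in Trog, ADAMTS17 (2.77 ± 0.413), ADAMTS9 (2.68 ± 0.367) and MMP21 (2.23 ± 0.212) led the members higher in TrogGW than in Trog. ADAMTS15 (-5.71 ± 0.277), ADAM33 (-2.10 ± 0.225), ADAMTS2 (-1.91 ± 0.189) and MMP11 (-1.67 ± 0.0948) led those lower. In UK against Trog 19 members rose and 9 fell, where 42.6% of all tested genes were called (22.5% higher and 20.1% lower). The split was 13 and 11 by library totals alone, and 27 and 12 without UK replicate 5, where 74.0% of all genes were called. Beside MMP10, ADAMTS9 (3.83 ± 0.497), MMP23 (3.35 ± 0.392) and ADAMTS17 (3.17 ± 0.458) led the members higher in UK, and ADAMTS5 (-5.42 ± 0.392), ADAMTS4 (-3.34 ± 0.24) and MMP11 (-2.69 ± 0.156) those lower. Members called with at least a 2-fold change numbered 23 of 40 in UK against Trog (24.7% of all tested genes), 29 in TrogGW against TGFb (36.9%), 17 in UK against TGFb (17.5%), 23 in Trog against TGFb (29.9%), 16 in TGFb against FB (13.2%), 26 in TrogGW against FB (36.3%), 17 in UK against FB (22.5%) and 24 in Trog against FB (29.7%).

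**Figure D2:**
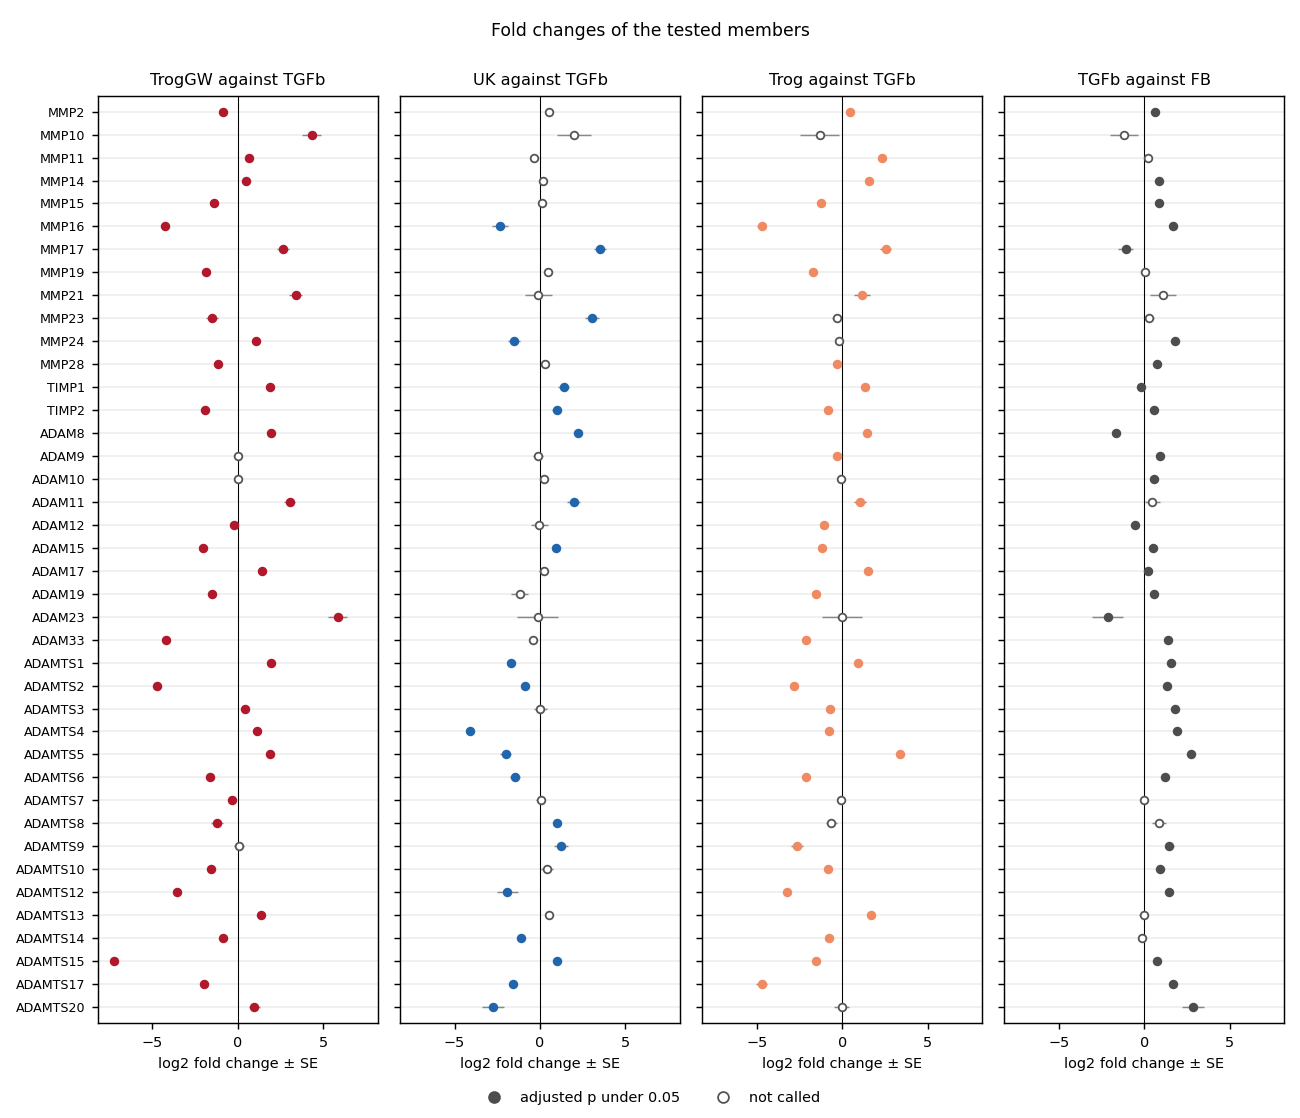
Log2 fold changes (horizontal axis, lines are ± SE) of the 40 tested members (vertical axis, by family) in TrogGW, UK and Trog, each against TGFb, and in TGFb against FB, 5 libraries a group. Filled points have an adjusted p under 0.05 and open points do not. In the panel of TGFb against FB no filled ADAMTS point lies below 0, while in the other panels filled points lie on both sides.

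The inhibitors TIMP1 and TIMP2 moved in opposite ways in TrogGW and Trog. TIMP1, which blocks most secreted MMPs, rose in all 3 day-5 groups against TGFb, while TIMP2 fell in TrogGW and Trog and rose in UK. TIMP1 stood at 2350, 2230, 2240, 1840 and 2310 CPM in TrogGW, 1060, 1140, 1130, 1260 and 3130 CPM in UK and 1820, 1330, 1270, 1460 and 1590 CPM in Trog. The other libraries held 642, 549, 583, 646 and 536 CPM in TGFb and 701, 654, 700, 633 and 718 CPM in FB. Each of the 15 day-5 libraries was above each of the 10 others, and TrogGW lay above Trog without overlap. The log2 fold change was 1.89 ± 0.0876 in TrogGW against TGFb (adjusted p = 1.66e-12), 1.38 ± 0.302 in UK against TGFb (adjusted p = 0.00551) and 1.34 ± 0.0838 in Trog against TGFb (adjusted p = 1.23e-12). Between TrogGW and Trog it was 0.55 ± 0.0983. For UK against Trog it was 0.05 ± 0.305 and not called, but -0.38 and called without UK replicate 5 (adjusted p = 0.00147), and that library held the highest value of all 25. In TGFb against FB TIMP1 fell by a small amount (-0.20 ± 0.0551), a call lost in the fit of all 25 libraries (adjusted p = 0.48). TIMP1 overlaps SYN1, whose group means were 5.42 to 7.29 CPM.

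TIMP2, which blocks MMP2 and MMP14, stood at 173, 163, 174, 144 and 163 CPM in TrogGW, 1010, 961, 994, 979 and 2230 CPM in UK and 356, 360, 408, 356 and 324 CPM in Trog. In the other groups it was at 677, 610, 620, 667 and 589 CPM in TGFb and 443, 414, 439, 405 and 432 CPM in FB. TrogGW lay below every other group and UK above every other group, without overlap. The log2 fold change was -1.95 ± 0.0646 in TrogGW against TGFb (adjusted p = 1.98e-14), 0.97 ± 0.243 in UK against TGFb (adjusted p = 0.0116) and -0.81 ± 0.0606 in Trog against TGFb (adjusted p = 3.06e-11). The UK value was 0.64 without UK replicate 5, and the call for Trog was lost with library totals alone (adjusted p = 0.0552). TIMP2 also fell in TrogGW against Trog (-1.14 ± 0.0683) and rose in UK against Trog (1.77 ± 0.251) and in TGFb against FB (0.57 ± 0.048). TIMP4 had 1 count, in TrogGW, and was not tested.

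MMP2, the gelatinase expressed by stromal fibroblasts, and MMP14, the membrane-type collagenase that activates it, were both higher in TGFb than in FB and parted in the day-5 groups. MMP2 stood at 1900, 1580, 1680, 1130 and 1670 CPM in TrogGW, 4610, 4760, 4710, 5010 and 2080 CPM in UK and 4250, 3710, 4160, 4030 and 3860 CPM in Trog. Its other values were 3190, 2810, 2850, 2890 and 2700 CPM in TGFb and 1870, 1730, 1890, 1790 and 1960 CPM in FB. The TrogGW libraries overlapped FB and lay below TGFb and Trog, whereas UK replicates 1 to 4 lay above every other library and UK replicate 5 fell below TGFb. MMP2 rose in TGFb against FB (0.64 ± 0.0527) and in Trog against TGFb (0.47 ± 0.0658), and fell in TrogGW against Trog (-1.33 ± 0.111, adjusted p = 5.55e-08). The fall in TrogGW against TGFb (-0.86 ± 0.114) was not called with library totals alone (adjusted p = 0.931). In UK against TGFb MMP2 was not called (0.55 ± 0.217, adjusted p = 0.079), but it was without UK replicate 5 (0.73, adjusted p = 9.19e-09).

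MMP14 stood at 772, 885, 903, 764 and 833 CPM in TrogGW, 733, 784, 715, 782 and 386 CPM in UK and 1930, 1690, 1980, 1860 and 1800 CPM in Trog. TGFb and FB libraries held 666, 602, 604, 596 and 578 CPM in TGFb and 324, 327, 335, 354 and 355 CPM in FB. Trog lay above every other group and FB below every other group, without overlap. MMP14 rose in Trog against TGFb (1.60 ± 0.0608, adjusted p = 1.24e-16) and was lower than in Trog in both TrogGW (-1.16 ± 0.0707, adjusted p = 2.11e-09) and UK (-1.45 ± 0.189, adjusted p = 0.000152). It rose by 0.45 ± 0.0671 in TrogGW against TGFb and by 0.85 ± 0.0477 in TGFb against FB. In UK against TGFb MMP14 was not called, but it was without UK replicate 5 (0.31, adjusted p = 0.000102).

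**Figure D3:**
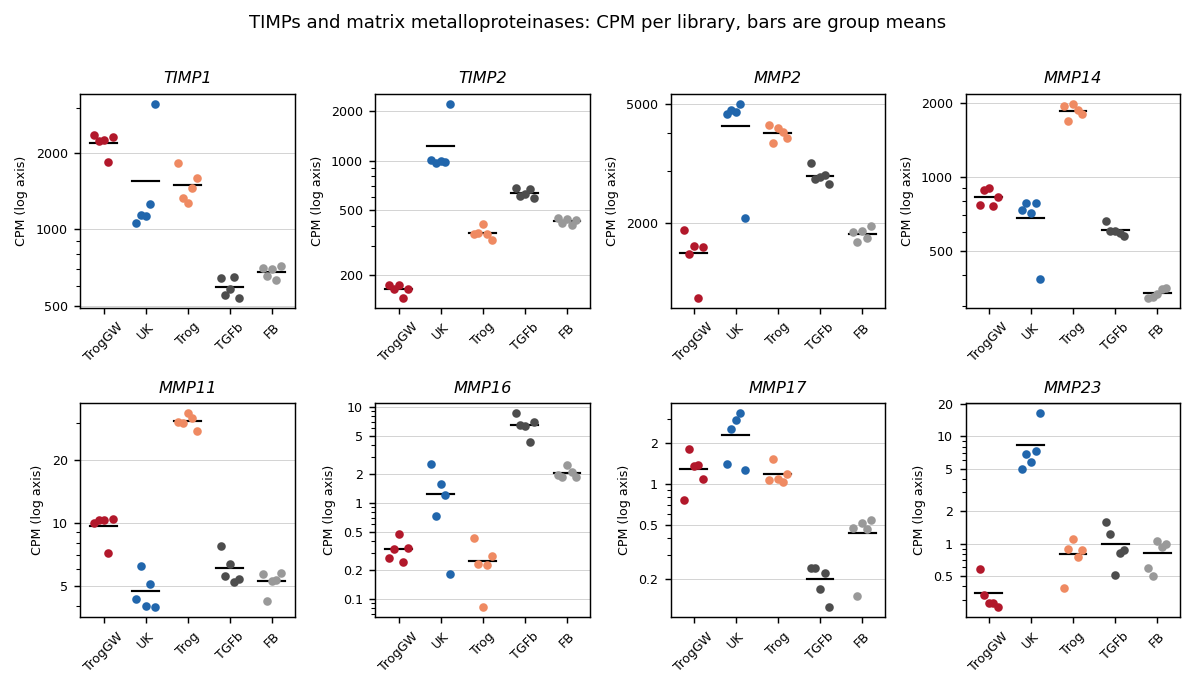
CPM (vertical axes, log scale) of TIMP1, TIMP2 and 6 MMP genes in every library, by group (horizontal axes). Points are libraries and bars are group means of 5. Trog has the highest values of MMP14 and MMP11, TGFb those of MMP16, and the single UK point far from its group is replicate 5 in the panels of TIMP1, TIMP2, MMP2, MMP14 and MMP23.

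Within a library the ratio of 2 genes does not depend on the scaling. MMP14 over TIMP2 averaged 5.1 ± 0.376 in TrogGW, 0.647 ± 0.268 in UK, 5.15 ± 0.367 in Trog, 0.964 ± 0.0397 in TGFb and 0.796 ± 0.0542 in FB (ratio of CPM, SD, n = 5). All TrogGW and Trog libraries, at 4.47 or more, lay above all others, the highest of which was 0.987. MMP2 over TIMP2 averaged 9.7 ± 1.17 in TrogGW, 4.06 ± 1.76 in UK, 11.1 ± 0.841 in Trog, 4.57 ± 0.142 in TGFb and 4.33 ± 0.141 in FB. TrogGW and Trog were at 7.83 or more, above the rest. Over TIMP1 the order differed. MMP14 over TIMP1 averaged 0.381 ± 0.0355 in TrogGW, 0.552 ± 0.242 in UK, 1.26 ± 0.188 in Trog, 1.03 ± 0.0678 in TGFb and 0.499 ± 0.0368 in FB. MMP2 over TIMP1 averaged 0.722 ± 0.0715 in TrogGW, 3.47 ± 1.58 in UK, 2.72 ± 0.366 in Trog, 4.9 ± 0.253 in TGFb and 2.71 ± 0.068 in FB. Over TIMP1, every TrogGW library was below every Trog library for both genes. TIMP1 over TIMP2 averaged 13.4 ± 0.594 in TrogGW, 1.21 ± 0.138 in UK, 4.18 ± 0.826 in Trog, 0.933 ± 0.0284 in TGFb and 1.6 ± 0.0386 in FB, so that TrogGW also stood apart from Trog. UK replicate 5 had the lowest MMP14 over TIMP2 of all libraries (0.173) but a TIMP1 over TIMP2 close to its group, which ranged from 1.05 to 1.4. It also lowered the other UK means. MMP2 over TIMP2 was 0.931 in UK replicate 5 and 4.57 to 5.11 in the other UK libraries. MMP2 over TIMP1 was 0.665 against 3.96 to 4.37, and MMP14 over TIMP1 was 0.123 against 0.619 to 0.695.

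**Figure D4:**
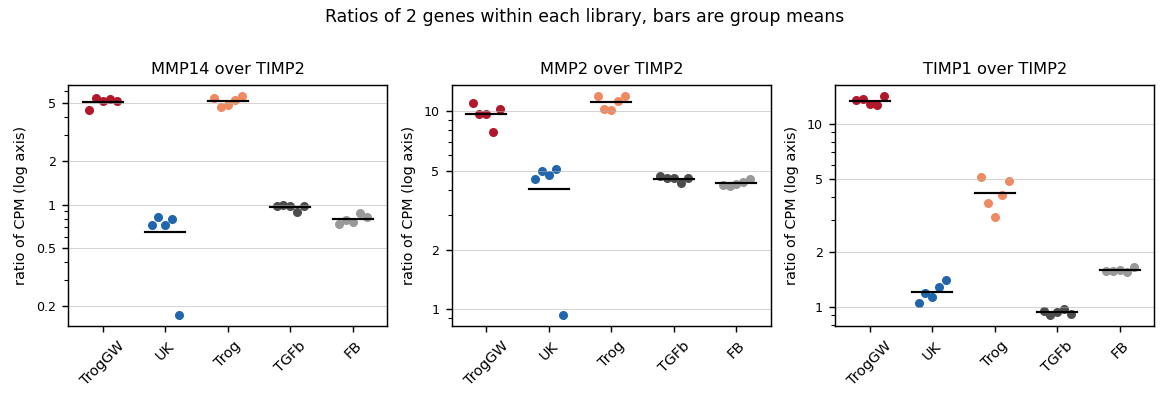
Ratios of CPM within each library (vertical axes, log scale) for MMP14 over TIMP2, MMP2 over TIMP2 and TIMP1 over TIMP2, by group (horizontal axes). Points are libraries and bars are group means of 5. TrogGW and Trog lie together in the panels of MMP14 and MMP2 over TIMP2 and apart in that of TIMP1 over TIMP2, where TrogGW averages 13.4 and Trog 4.18.

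Of the other secreted MMPs, MMP11 was highest in Trog and MMP19 in UK. MMP11, a stromal MMP that furin activates inside the cell, stood at 9.96, 10.3, 10.3, 7.15 and 10.4 CPM in TrogGW, 4.32, 6.23, 4.01, 5.1 and 3.93 CPM in UK and 30.2, 30.1, 33.4, 31.8 and 27.5 CPM in Trog. It stood at 7.76, 5.54, 6.32, 5.22 and 5.35 CPM in TGFb and 5.67, 4.23, 5.28, 5.34 and 5.72 CPM in FB. Every Trog library was above every other library. MMP11 rose in Trog against TGFb (2.33 ± 0.0931, adjusted p = 3.2e-16) and was lower in TrogGW than in Trog (-1.67 ± 0.0948) and in UK than in Trog (-2.69 ± 0.156). MMP19, which is made in many tissues, stood at 4.94, 6.51, 7.65, 7.39 and 7.7 CPM in TrogGW, 40.4, 39.2, 36.7, 40.5 and 15.8 CPM in UK and 8.12, 7.77, 8.69, 6.79 and 6.96 CPM in Trog. The other libraries held 28.1, 22.3, 25.3, 26 and 21.9 CPM in TGFb and 23.1, 25.2, 24.6, 23.4 and 23.6 CPM in FB. UK replicates 1 to 4 were above every other library, the TrogGW and Trog libraries below all libraries of the other groups, and TGFb overlapped FB. MMP19 fell in TrogGW (-1.85 ± 0.11) and Trog (-1.69 ± 0.0882) against TGFb. In UK against TGFb it was not called (0.48 ± 0.235) but was without UK replicate 5 (0.67, adjusted p = 1.24e-07). MMP28 (epilysin) fell in TrogGW against TGFb (-1.18 ± 0.0732) and rose in TGFb against FB (0.72 ± 0.0596). In UK against TGFb it was not called in the main fit but was without UK replicate 5 (0.15, adjusted p = 0.0383). MMP28 overlaps CE1H17orf50, whose highest group mean was 0.00903 CPM.

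MMP10 and MMP21 were scarce and were highest in TrogGW. MMP10 (stromelysin 2, which activates collagenases) stood at 0.651, 1.37, 0.917, 1.04 and 1.56 CPM in TrogGW, 0.0547, 0.147, 0.206, 0.135 and 0.732 CPM in UK and 0, 0, 0.0406, 0.0373 and 0 CPM in Trog. In the other groups it was at 0, 0, 0, 0.224 and 0.0622 CPM in TGFb and 0.119, 0.151, 0.157, 0.128 and 0.055 CPM in FB. All TrogGW libraries but replicate 1 were above every other library, among which UK replicate 5 was the highest. From 144 counts in TrogGW and 2 in Trog the ratio was 67.5 (95% counting interval 18.3 to 562), and from 19 counts in UK and the same 2 in Trog it was 12.8 (3.08 to 113). UK replicate 5 held 8 of those 19 counts, and without it the UK mean was 0.136 CPM in place of 0.255 CPM. Counting intervals here cover counting error only. MMP21 stood at 1.38, 1.78, 1.51, 1.84 and 2.2 CPM in TrogGW, 0, 0.245, 0.257, 0.181 and 0 CPM in UK and 0.344, 0.462, 0.325, 0.336 and 0.369 CPM in Trog. Its other values were 0.364, 0.183, 0.113, 0 and 0.124 CPM in TGFb and 0, 0.101, 0, 0.0427 and 0.22 CPM in FB. Each TrogGW library was above every other library. MMP21 rose in TrogGW against Trog (2.23 ± 0.212) and against TGFb (3.38 ± 0.36). MMP21 overlaps EDRF1, whose group means ran from 30.4 to 60.1 CPM and which rose by 0.89 on the log2 scale in TrogGW against TGFb, and the strand setting of the counting was not given in the sources used here, so MMP21 values are uncertain.

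The membrane-type MMPs did not move as 1 group. MMP16, which like MMP14 is anchored by a transmembrane helix, stood at 0.268, 0.333, 0.478, 0.243 and 0.338 CPM in TrogGW, 2.52, 0.735, 1.59, 1.22 and 0.183 CPM in UK and 0.43, 0.231, 0.0812, 0.224 and 0.276 CPM in Trog. TGFb and FB libraries held 8.61, 6.51, 6.32, 4.33 and 6.91 CPM in TGFb and 1.97, 1.86, 2.46, 2.09 and 1.87 CPM in FB. TGFb lay above every other group. MMP16 rose in TGFb against FB (1.68 ± 0.157) and fell against TGFb in TrogGW (-4.29 ± 0.226), UK (-2.34 ± 0.444) and Trog (-4.71 ± 0.248). MMP17, anchored by glycosylphosphatidylinositol, ran the other way, with 0.766, 1.81, 1.36, 1.39 and 1.1 CPM in TrogGW, 1.42, 2.55, 2.98, 3.34 and 1.28 CPM in UK and 1.07, 1.54, 1.1, 1.04 and 1.2 CPM in Trog. It stood at 0.243, 0.243, 0.169, 0.224 and 0.124 CPM in TGFb and 0.478, 0.151, 0.523, 0.47 and 0.55 CPM in FB. All day-5 libraries lay above all TGFb and FB libraries. MMP17 rose against TGFb in TrogGW (2.65 ± 0.339), UK (3.51 ± 0.366) and Trog (2.54 ± 0.302). Its fall in TGFb against FB (-1.09 ± 0.423) was lost in 7 of 17 alternatives, among them DESeq2 and limma voom.

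MMP24, known mainly from the nervous system, stood at 3.95, 3.7, 4.42, 4.44 and 3.34 CPM in TrogGW, 0.876, 0.735, 0.411, 1.04 and 0.0915 CPM in UK and 1.72, 1.12, 1.54, 1.6 and 2.72 CPM in Trog. The other libraries held 2, 1.83, 2.31, 1.79 and 1.62 CPM in TGFb and 0.776, 0.504, 0.47, 0.427 and 0.659 CPM in FB. TrogGW lay above every other group. MMP24 rose in TrogGW against Trog (1.21 ± 0.186) and in TGFb against FB (1.77 ± 0.226), and fell in UK against TGFb (-1.52 ± 0.372). It overlaps EDEM2, at 44.9 to 127 CPM by group, which fell by 0.81 on the log2 scale in TrogGW against TGFb, so MMP24 values are uncertain for the same reason as those of MMP21. MMP15, another transmembrane type, fell in TrogGW (-1.42 ± 0.16) and Trog (-1.24 ± 0.163) against TGFb and rose in TGFb against FB (0.86 ± 0.149). MMP23, which lacks the usual haemopexin domain, stood at 0.575, 0.333, 0.279, 0.278 and 0.254 CPM in TrogGW, 4.98, 6.91, 5.76, 7.27 and 16.5 CPM in UK and 0.387, 0.885, 1.1, 0.746 and 0.875 CPM in Trog. In the other groups it was at 1.58, 1.22, 0.508, 0.821 and 0.871 CPM in TGFb and 0.597, 0.504, 1.05, 0.94 and 0.989 CPM in FB. UK lay above every other group, with replicate 5 highest. MMP23 rose in UK against TGFb (3.03 ± 0.408, and 2.64 without UK replicate 5) and fell in TrogGW against Trog (-1.20 ± 0.311).

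The secreted collagenases, matrilysin, metalloelastase and gelatinase B were below the filter. Interstitial collagenase MMP1 had 44 counts in TrogGW, 1 in UK, 0 in Trog, 2 in TGFb and 0 in FB, summed over 5 libraries. The elastase MMP12 had 91 counts in TrogGW, 18 in UK and 0 in Trog, TGFb and FB. Gelatinase B (MMP9) had 44 counts in TrogGW, 8 in UK, 21 in Trog and 0 in TGFb and FB, and was detected in each of the 15 day-5 libraries. Matrilysin (MMP7) had 30 counts in TrogGW, 0 in UK, 14 in Trog, 2 in TGFb and 2 in FB. Against a floor of 3 counts over a group, MMP12 was at least 28.4-fold higher in TrogGW than in Trog and at least 18.6-fold higher in TrogGW than in TGFb, MMP9 at least 8.99-fold higher in TrogGW than in TGFb and at least 4.58-fold higher in Trog than in TGFb, and MMP1 at least 13.7-fold higher in TrogGW than in Trog. The ratio of MMP7 in TrogGW to TGFb was 9.2 (95% counting interval 2.33 to 79.4). TrogGW replicates 1 to 5 held 4, 17, 5, 7 and 11 counts of MMP1 and 2, 28, 32, 15 and 14 of MMP12. Macrophages and neutrophils also make MMP8, MMP9 and MMP12. Of the immune cell markers, PTPRC, AIF1 and CD163 were at 0 in every group, whereas CSF1R averaged 4.44 CPM in TrogGW, 6.33 in UK, 5.81 in Trog, 0.152 in TGFb and 0.315 in FB. CD14 averaged 2.15 CPM in TrogGW, 3.5 in UK, 3.5 in Trog, 0.703 in TGFb and 0.978 in FB. ITGB2 averaged 1.19 CPM in TrogGW, 0.135 in UK, 1.07 in Trog, 0.0705 in TGFb and 0.214 in FB. CD68, the most abundant of these markers, averaged 20.1 CPM in TrogGW, 20.2 in UK, 25.8 in Trog, 22.6 in TGFb and 10.8 in FB. MRC1 averaged 0.529 CPM in TrogGW, 0.192 in UK, 0.0976 in Trog, 0.125 in TGFb and 0.102 in FB. The markers thus did not all rise from TGFb to the day-5 groups. The part of these markers in the MMP counts was not tested.

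MMP8 (neutrophil collagenase) had 24 counts in TrogGW, 30 in UK, 35 in Trog, 20 in TGFb and 13 in FB. MMP13 had 1, 2, 0, 1 and 5 counts and MMP27 3, 10, 0, 1 and 1 counts in that order of groups. MMP20, which is specific to tooth enamel, had 0 counts in every library. In the RefSeq table of the cat, MMP7, MMP20, MMP27, MMP8, MMP10, MMP1, MMP12 and MMP13 lie in this order on chromosome D1. By mean CPM, MMP1, MMP7, MMP10 and MMP12 were highest in TrogGW, MMP8 and MMP27 in UK and MMP13 in FB.

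The hyalectanases, which cut aggrecan and versican, include ADAMTS15, the member with the widest range of group means (306-fold). ADAM23, with 2 counts in UK, was next at 86.7-fold, and ADAMTS5 followed at 71.9-fold. ADAMTS5, a main aggrecanase, stood at 28.2, 42.2, 49, 50.2 and 35.1 CPM in TrogGW, 3.06, 2.84, 2.78, 4.06 and 0.64 CPM in UK and 134, 109, 98, 140 and 104 CPM in Trog. Its other values were 12.9, 12.2, 10.5, 8.06 and 11.6 CPM in TGFb and 1.37, 1.81, 1.46, 1.62 and 1.87 CPM in FB. Trog lay highest, then TrogGW, then TGFb, each without overlap with the next, and UK replicates 1 to 4 lay above FB while replicate 5 lay below it. ADAMTS5 rose in TGFb against FB (2.76 ± 0.14, adjusted p = 3.58e-15) and again in Trog against TGFb (3.40 ± 0.109, adjusted p = 5.92e-18). It was lower than in Trog in TrogGW (-1.51 ± 0.14, adjusted p = 1.54e-07) and UK (-5.42 ± 0.392, adjusted p = 2.81e-06). Against TGFb it rose in TrogGW (1.88 ± 0.15) and fell in UK (-2.02 ± 0.348).

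ADAMTS15, which cuts versican, stood at 0.345, 0.259, 0.159, 0.139 and 0.211 CPM in TrogGW, 70.4, 45.9, 62.7, 79.7 and 81.5 CPM in UK and 11.1, 14.5, 14.5, 12.4 and 6.77 CPM in Trog. TGFb and FB libraries held 40.5, 31, 33.7, 32.5 and 35.5 CPM in TGFb and 19.1, 20, 18.7, 21.2 and 24.6 CPM in FB. The order was UK, TGFb, FB, Trog and TrogGW, with no overlap between neighbours, and the highest TrogGW library was at 0.345 CPM. ADAMTS15 fell in TrogGW against TGFb (-7.25 ± 0.148, adjusted p = 7.03e-17) and against Trog (-5.71 ± 0.277, adjusted p = 1.87e-10). It was higher in UK than in Trog (2.52 ± 0.242) and than in TGFb (0.97 ± 0.166). TrogGW held 29 counts of ADAMTS15 in all, and the SE of 0.148 is too small for so few counts. The ratio of ADAMTS5 to ADAMTS15 CPM within a library averaged 216 ± 115 in TrogGW, 0.0417 ± 0.0203 in UK, 10.6 ± 3.53 in Trog, 0.319 ± 0.0514 in TGFb and 0.0787 ± 0.00707 in FB, with no overlap between groups. In TrogGW it ran from 81.8 to 361 and rests on 9, 7, 4, 4 and 5 counts of ADAMTS15, so its size is uncertain. UK replicate 5 was at 0.00786, from 7 counts of ADAMTS5, and the other UK libraries were at 0.0435 to 0.062. ADAMTS8, the neighbour of ADAMTS15 in the RefSeq table, averaged 0.254 ± 0.102 CPM in TrogGW, 1.2 ± 0.186 in UK, 0.379 ± 0.131 in Trog, 0.604 ± 0.145 in TGFb and 0.319 ± 0.266 in FB (SD, n = 5). ADAMTS8 was higher in UK than in Trog (1.65 ± 0.244) and was not called in TrogGW against Trog (-0.59 ± 0.362, adjusted p = 0.158).

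ADAMTS4, the other well-known aggrecanase, stood at 20.8, 31.3, 32.8, 32.1 and 34 CPM in TrogGW, 0.602, 0.735, 0.514, 1.22 and 1.01 CPM in UK and 7.3, 8.69, 7.06, 8.54 and 9.86 CPM in Trog. It stood at 16.4, 12.3, 15.9, 12 and 13 CPM in TGFb and 3.52, 3.12, 4.08, 3.93 and 4.12 CPM in FB. TrogGW lay above every other group and UK below every other group. ADAMTS4 rose in TGFb against FB (1.89 ± 0.113) and in TrogGW against Trog (1.87 ± 0.128) and fell in UK against TGFb (-4.09 ± 0.246, adjusted p = 1.48e-06). Its fall in Trog against TGFb (-0.75 ± 0.107) was lost with library totals alone (adjusted p = 0.546). ADAMTS1, an angiostatic hyalectanase next to ADAMTS5 in the RefSeq table, stood at 158, 207, 205, 204 and 194 CPM in TrogGW, 17, 8.24, 15.2, 19.9 and 18.1 CPM in UK and 107, 96.8, 84.6, 103 and 79.6 CPM in Trog. The other libraries held 49.1, 48.7, 52.9, 41.9 and 56.8 CPM in TGFb and 16.3, 15.7, 16.5, 18.6 and 17.1 CPM in FB. UK overlapped FB, and the other groups were each apart. ADAMTS1 rose in TGFb against FB (1.57 ± 0.0726), in Trog against TGFb (0.91 ± 0.0793) and in TrogGW against Trog (1.04 ± 0.0886), and fell in UK against Trog (-2.59 ± 0.228).

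**Figure D5:**
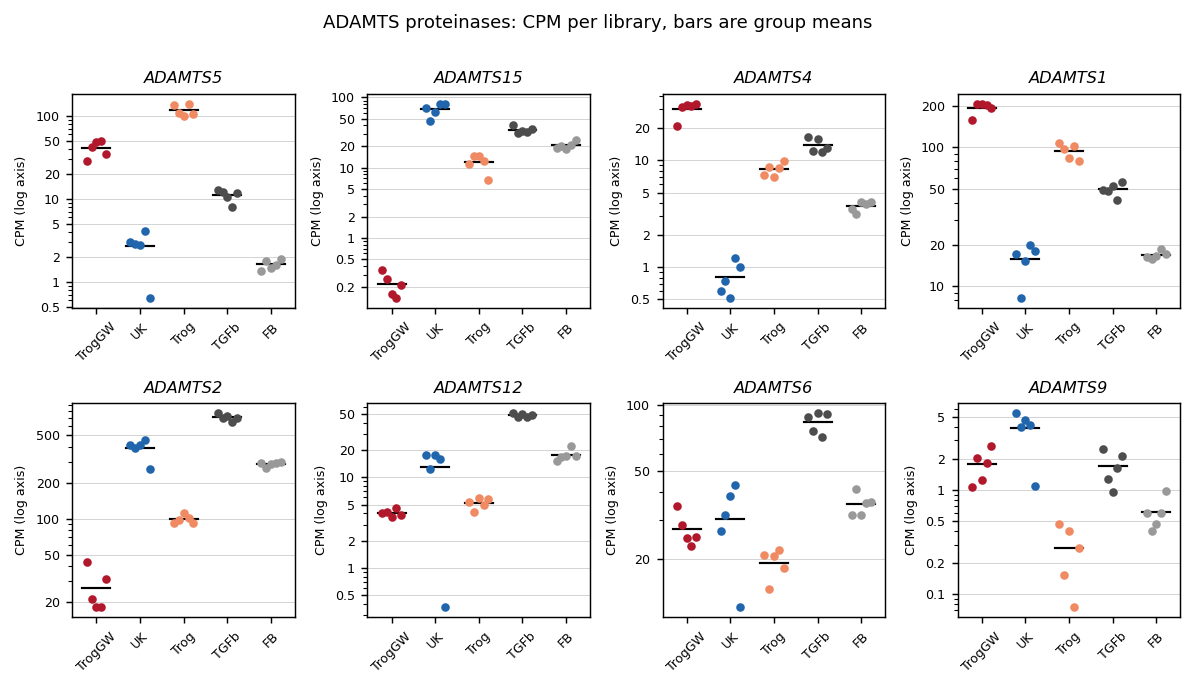
CPM (vertical axes, log scale) of 8 ADAMTS genes in every library, by group (horizontal axes). Points are libraries and bars are group means of 5. ADAMTS5 is highest in Trog, ADAMTS15 lowest in TrogGW, ADAMTS4 and ADAMTS1 highest in TrogGW, and ADAMTS2, ADAMTS12 and ADAMTS6 highest in TGFb.

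ADAMTS9, a versicanase, stood at 1.07, 2.04, 1.24, 1.81 and 2.66 CPM in TrogGW, 5.47, 4.02, 4.68, 4.24 and 1.1 CPM in UK and 0.473, 0.154, 0.406, 0.0746 and 0.276 CPM in Trog. In the other groups it was at 2.49, 1.28, 0.959, 1.64 and 2.12 CPM in TGFb and 0.597, 0.403, 0.47, 0.598 and 0.989 CPM in FB. UK replicates 1 to 4 were above every other library, and Trog lay below TGFb and TrogGW. ADAMTS9 fell in Trog against TGFb (-2.62 ± 0.35) and was higher in TrogGW than in Trog (2.68 ± 0.367). Its rise in UK against TGFb (1.22 ± 0.389, adjusted p = 0.0355) was lost in 10 of 18 alternatives and was 1.44 without UK replicate 5. ADAMTS20, its closest relative, was scarce, at 0.67 ± 0.219 CPM in TrogGW, 0.0419 ± 0.0711 in UK, 0.323 ± 0.228 in Trog, 0.339 ± 0.0724 in TGFb and 0.0468 ± 0.0777 in FB.

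The procollagen N-proteinases ADAMTS2, ADAMTS3 and ADAMTS14 remove the N-propeptide of fibrillar procollagens and did not move together. ADAMTS2 stood at 43.2, 21.3, 18.2, 18 and 31 CPM in TrogGW, 411, 393, 415, 452 and 259 CPM in UK and 91, 96.4, 111, 102 and 92.4 CPM in Trog. Its other values were 764, 695, 720, 643 and 689 CPM in TGFb and 292, 264, 287, 290 and 296 CPM in FB. TGFb lay above every other group, and TrogGW below every other group. ADAMTS2 rose in TGFb against FB (1.30 ± 0.05) and fell against TGFb in TrogGW (-4.74 ± 0.201), UK (-0.86 ± 0.149) and Trog (-2.83 ± 0.0641). It was also lower in TrogGW than in Trog (-1.91 ± 0.189). ADAMTS3 stood at 15.8, 19.6, 16.3, 18.5 and 16.3 CPM in TrogGW, 21.9, 11.2, 15.5, 12.5 and 3.48 CPM in UK and 7.65, 7.12, 6.9, 8.84 and 8.75 CPM in Trog. TGFb and FB libraries held 16.4, 11.6, 13.5, 10.3 and 12.3 CPM in TGFb and 3.46, 3.27, 4.18, 4.23 and 3.41 CPM in FB. ADAMTS3 rose in TGFb against FB (1.79 ± 0.122) and in TrogGW against Trog (1.14 ± 0.0927), with no overlap between the groups of either pair. ADAMTS14 averaged 12 ± 2.64 CPM in TrogGW, 10.1 ± 1.97 in UK, 12.8 ± 1.11 in Trog, 21.6 ± 4.46 in TGFb and 24.1 ± 1.1 in FB, and was not called in TGFb against FB (-0.15 ± 0.0959).

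ADAMTS7 and ADAMTS12, known for cutting cartilage oligomeric matrix protein, differed in range. ADAMTS12 stood at 4.02, 4.14, 3.67, 4.62 and 3.85 CPM in TrogGW, 17.8, 12.5, 17.4, 16.1 and 0.366 CPM in UK and 5.28, 4.15, 5.84, 4.96 and 5.76 CPM in Trog. It stood at 51.1, 46.4, 49.7, 45.8 and 49 CPM in TGFb and 15.3, 16.8, 17.2, 21.9 and 17.1 CPM in FB. TGFb lay above every other group, and UK replicate 5 was the lowest of all libraries. ADAMTS12 rose in TGFb against FB (1.45 ± 0.0737) and fell against TGFb in TrogGW (-3.57 ± 0.0714) and Trog (-3.22 ± 0.0795). Its fall in UK against TGFb (-1.91 ± 0.61, adjusted p = 0.0357) was lost in 11 of 18 alternatives and was -1.60 without UK replicate 5. ADAMTS7 had its lowest mean in TrogGW, at 15 CPM, and its highest in FB, at 19.6 CPM. ADAMTS7 overlaps TBC1D2B, at 18.3 to 69 CPM by group, so its values are uncertain.

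ADAMTS6, ADAMTS10 and ADAMTS17 belong to the branch that acts on fibrillin microfibrils. ADAMTS17 stood at 0.498, 0.74, 0.678, 0.764 and 0.804 CPM in TrogGW, 0.821, 0.735, 1.18, 1.08 and 0.732 CPM in UK and 0.043, 0.115, 0.0812, 0.224 and 0 CPM in Trog. The other libraries held 2.12, 3.04, 2.59, 3.06 and 2.86 CPM in TGFb and 0.597, 0.856, 0.941, 1.03 and 0.769 CPM in FB. TGFb lay above and Trog below every other group. ADAMTS17 fell in Trog against TGFb (-4.72 ± 0.323, adjusted p = 6.32e-12) and was higher than in Trog in TrogGW (2.77 ± 0.413) and UK (3.17 ± 0.458). ADAMTS6 rose in TGFb against FB (1.24 ± 0.0755) and fell against TGFb in TrogGW (-1.62 ± 0.0997), UK (-1.46 ± 0.288) and Trog (-2.13 ± 0.0915). ADAMTS10 rose in TGFb against FB (0.91 ± 0.0824) and fell in TrogGW against TGFb (-1.58 ± 0.103). In UK against TGFb ADAMTS10 was not called, but it was without UK replicate 5 (0.65, adjusted p = 1.53e-05). ADAMTS13, the protease of von Willebrand factor, stood at 1.65, 2, 1.63, 1.74 and 1.78 CPM in TrogGW, 0.766, 0.98, 0.823, 1.22 and 1.37 CPM in UK and 1.98, 2.5, 2.19, 2.46 and 2.21 CPM in Trog. In the other groups it was at 0.788, 0.67, 0.733, 0.522 and 0.746 CPM in TGFb and 0.896, 0.856, 0.575, 0.769 and 0.495 CPM in FB. ADAMTS13 rose in Trog (1.69 ± 0.19) and TrogGW (1.33 ± 0.191) against TGFb. Below the filter, ADAMTS16 had 1, 9, 0, 3 and 3 counts, ADAMTS19 had 8, 1, 5, 0 and 1 counts and ADAMTS18 had 2, 0, 0, 0 and 0 counts in TrogGW, UK, Trog, TGFb and FB.

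Against TGFb, the sheddase ADAM17 was higher in TrogGW and Trog, and ADAM10 was not called in any day-5 group in the main fits. With library totals alone the log2 fold change of ADAM10 against TGFb was 0.83 in TrogGW and 0.60 in Trog. Without UK replicate 5, ADAM10 was called higher in UK than in TGFb by a small amount (0.15, adjusted p = 0.0347). ADAM17, which releases tumour necrosis factor and ligands of the epidermal growth factor receptor, averaged 156 ± 10.4 CPM in TrogGW, 69.8 ± 23.3 in UK, 170 ± 7.46 in Trog, 59.8 ± 4.22 in TGFb and 50.8 ± 1.02 in FB (SD, n = 5). It rose in TrogGW (1.39 ± 0.0582) and Trog (1.51 ± 0.0531) against TGFb and was lower in UK than in Trog (-1.28 ± 0.253), and in UK against TGFb it was not called (0.22 ± 0.253) but was without UK replicate 5 (0.42). In TGFb against FB ADAM17 rose by 0.24 ± 0.0528, a call lost in the fit of all 25 libraries and reversed to -0.14 with library totals alone. ADAM10, the sheddase of Notch receptors and cadherins, averaged 349 ± 16.4 CPM in TrogGW, 418 ± 55.3 in UK, 334 ± 15.8 in Trog, 355 ± 27.2 in TGFb and 242 ± 17.9 in FB. ADAM10 was higher than in FB in TrogGW (0.53 ± 0.0582), UK (0.79 ± 0.115) and Trog (0.46 ± 0.0546). ADAM10 rose in TGFb against FB (0.55 ± 0.0556), as did ADAM9 (0.90 ± 0.0495), another sheddase.

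ADAM12 and ADAM19, the meltrins, and ADAM33 are close relatives, and ADAM15 is known as a ligand of integrins. ADAM33 stood at 10.1, 4.03, 2.95, 4.2 and 5.5 CPM in TrogGW, 75.7, 76, 89.9, 91.4 and 38.6 CPM in UK and 22, 22, 26.1, 25.3 and 19 CPM in Trog. Its other values were 107, 96.2, 95.7, 85.8 and 103 CPM in TGFb and 35.8, 39.4, 37.8, 34.7 and 35.7 CPM in FB. ADAM33 rose in TGFb against FB (1.41 ± 0.0587) and fell in TrogGW (-4.19 ± 0.197) and Trog (-2.09 ± 0.0755) against TGFb, and TrogGW lay below Trog (-2.10 ± 0.225). In UK against TGFb ADAM33 was not called (-0.39 ± 0.209), but it was without UK replicate 5 (-0.23, adjusted p = 0.00725). ADAM12 stood at 24.7, 27.9, 34, 26.5 and 29.5 CPM in TrogGW, 32.3, 39.9, 38.3, 48.7 and 3.66 CPM in UK and 14.8, 14.2, 17, 17.4 and 16.2 CPM in Trog. TGFb and FB libraries held 35.7, 32.8, 35.6, 28.2 and 35.6 CPM in TGFb and 49.7, 43, 49.5, 52.8 and 46.2 CPM in FB. ADAM12 was lower in TGFb than in FB (-0.52 ± 0.0669), a call lost in the fit of all 25 libraries, and fell in Trog against TGFb (-1.08 ± 0.0764). The small fall in TrogGW against TGFb (-0.24 ± 0.0846) turned to a rise of 0.62 with library totals alone and was lost in the fit of all 25 libraries. ADAM15 rose in UK against TGFb (0.94 ± 0.157) and fell in TrogGW (-2.07 ± 0.127) and Trog (-1.17 ± 0.0793). ADAM19 fell in TrogGW (-1.51 ± 0.0672) and Trog (-1.51 ± 0.0637) against TGFb. In UK against TGFb ADAM19 was not called (-1.19 ± 0.506, adjusted p = 0.103), though the groups did not overlap. Without UK replicate 5 it was called (-0.89, adjusted p = 1.62e-10).

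ADAM8, a proteinase best known from leukocytes, stood at 2.91, 2.44, 2.99, 2.78 and 3.13 CPM in TrogGW, 3.06, 3.82, 3.19, 3.34 and 3.84 CPM in UK and 1.89, 1.58, 2.07, 2.46 and 1.84 CPM in Trog. It stood at 0.607, 0.73, 0.677, 0.896 and 0.746 CPM in TGFb and 2.63, 1.31, 2.72, 2.44 and 2.47 CPM in FB. TGFb lay below every other group. ADAM8 fell in TGFb against FB (-1.66 ± 0.231) and rose against TGFb in TrogGW (1.96 ± 0.175), UK (2.23 ± 0.161) and Trog (1.44 ± 0.207). ADAM11, ADAM22 and ADAM23 have no working metalloproteinase site and are known as neuronal receptors. ADAM23 stood at 2.03, 1.48, 2.07, 1.01 and 2.33 CPM in TrogGW, 0, 0, 0.103, 0 and 0 CPM in UK and 0, 0, 0.0812, 0.0373 and 0 CPM in Trog. The other libraries held 0.0607, 0, 0, 0 and 0.0622 CPM in TGFb and 0.119, 0.0504, 0.105, 0.0855 and 0.33 CPM in FB. Each TrogGW library was above every other library. From 229 counts in TrogGW the ratio was 71.5 to the 3 counts in Trog (95% counting interval 24.2 to 349) and 70.2 to the 2 counts in TGFb (19.2 to 583). ADAM11 stood at 2.91, 2.44, 2.19, 2.64 and 1.14 CPM in TrogGW, 1.26, 1.27, 1.13, 1.26 and 0.366 CPM in UK and 0.644, 0.5, 0.528, 0.522 and 0.691 CPM in Trog. In the other groups it was at 0.364, 0.243, 0.338, 0.299 and 0.124 CPM in TGFb and 0.239, 0.252, 0.209, 0.214 and 0.055 CPM in FB. ADAM11 rose in TrogGW against Trog (1.98 ± 0.248) and against TGFb (3.03 ± 0.328). ADAM22 was below the filter with 29 counts in TrogGW, 11 in UK, 10 in Trog, 16 in TGFb and 11 in FB. ADAM28 had 3 counts, in FB, and ADAM2 and ADAM7, known from the male reproductive tract, had 0.

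Genes that act with these families were taken from lists of substrates, activators and regulators. Their counts are read against the share of all tested genes called, which was 69.5% in TrogGW against Trog, 42.6% in UK against Trog, 85.9% in TrogGW against TGFb (46.6% higher and 39.3% lower), 81.7% in Trog against TGFb (42.4% higher and 39.3% lower) and 68.2% in TGFb against FB (32.9% higher and 35.3% lower). Of 11 tested ADAMTS substrates, 1 rose and 10 fell in TrogGW against TGFb (median log2 fold change -3.47, against 0.09 over all genes) and 1 rose and 9 fell in Trog against TGFb (median -2.34). In TGFb against FB 8 rose and 2 fell, and in UK against Trog 9 rose and 0 fell. The substrate versican (VCAN) rose in TGFb against FB (2.01 ± 0.0774) and fell in TrogGW (-5.71 ± 0.16) and Trog (-4.23 ± 0.0991) against TGFb. COMP rose in TGFb against FB (6.59 ± 0.172) and fell in TrogGW against TGFb (-2.76 ± 0.137). Of 7 tested ADAMTS-like genes and papilin, 5 rose and 0 fell in TGFb against FB (3 called in the fit of all 25 libraries), led by ADAMTSL2 (4.80 ± 0.152), a regulator of microfibrils. Of 7 tested astacin and pappalysin genes, 7 rose in TGFb against FB (68.2% of all tested genes called), and 1 rose and 6 fell in Trog against TGFb (81.7% called). The procollagen C-proteinases BMP1 and TLL1 changed by -2.32 ± 0.051 and -5.11 ± 0.184 in Trog against TGFb.

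AP-1 transcription factors, which drive several MMP promoters, differed between TrogGW and Trog. Of 9 tested, 8 were higher and 1 lower in TrogGW, with a median log2 fold change of 1.43 against 0.01 over all genes. ATF3 (1.46 ± 0.126) and JUN (1.47 ± 0.125) were among the higher, and FOSL2 was the lower (-0.72 ± 0.0764). Of 9 tested genes of plasminogen activation, which makes the plasmin that activates pro-MMPs, 2 rose and 7 fell in Trog against TGFb, where 81.7% of all tested genes were called. The urokinase gene PLAU fell (-1.67 ± 0.0635) and the inhibitor SERPINE2 rose (1.75 ± 0.0648) in Trog against TGFb. Of 10 tested other regulators, 1 rose and 9 fell in TrogGW against TGFb, where 85.9% of all tested genes were called. The 1 that rose was TFPI2 (3.03 ± 0.171), an inhibitor of plasmin and of some MMPs, and among the 9 was thrombospondin 1, THBS1 (-3.52 ± 0.167).

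Of 13 tested partners of ADAM10 and ADAM17, 4 rose and 8 fell in Trog against TGFb, a share near the 81.7% of all tested genes called. The iRhom gene RHBDF2 rose (1.77 ± 0.105) and RHBDF1 fell (-1.60 ± 0.0579), both of which carry ADAM17 to the cell surface, and FRMD8, which stabilises the iRhoms, rose (1.03 ± 0.0607). Of 13 tested substrates of ADAM10 and ADAM17, 10 rose and 2 fell in TGFb against FB, and 7 were called in the fit of all 25 libraries. Among those that rose were NOTCH3 (1.02 ± 0.0677) and syndecan 1, SDC1 (0.74 ± 0.0543). Of 6 tested proprotein convertases, which cut the propeptides of membrane-type MMPs and ADAMs, 4 rose and 1 fell in TGFb against FB, where 68.2% of all tested genes were called, with PCSK5 at 2.35 ± 0.0526. Of 7 tested cytokines and receptors known to induce MMPs, 5 rose and 1 fell in Trog against TGFb, near the 81.7% of all tested genes called there. The oncostatin M receptor OSMR (0.99 ± 0.0589) and IL6 (3.90 ± 0.554) rose, and LIF fell (-2.03 ± 0.171).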

How the data were processed

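Per the labels' protocols, mRNA was prepared with a stranded kit and read on a NovaSeq. The authors deposited raw read counts per gene and library, which is the unit used here. Salmon 1.5.2, STAR 2.7.9a, fastp 0.23.1 and featureCounts of Subread 2.0.1 are listed, with no role, per the submitters' processing notes. The genome build, annotation and strand setting are not given in the sources used here, so reads of overlapping genes may be shared.

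Genes were filtered with filterByExpr (minimum count 10, minimum total 15) and scaled by TMM over all 25 libraries, which left 10699 genes. Each of 9 comparisons was fitted on its own 10 libraries with edgeR 4.0.16 (R 4.3.3) by the quasi-likelihood F test. Adjusted p is Benjamini-Hochberg over all 10699 genes, called under 0.05, and the SE is the absolute log2 fold change divided by the square root of F. This SE is approximate. It can be too small for large fold changes where a group holds few counts, such as ADAMTS15 in TrogGW (29) and ADAMTS17 in Trog (12). Comparisons were fitted apart so that UK replicate 5 does not enter those without UK, and a fit of all 25 libraries is given as an alternative. DESeq2 1.42.0 and limma voom (limma 3.58.1) were further alternatives. Ratios for genes with 1 to 3 counts carry 95% counting intervals, and a group at 0 was set to a floor of 3 counts over the group.

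The members and gene lists were chosen with earlier results of these data known. Values per library are given for tested members that, in any comparison among TrogGW, UK, Trog and TGFb or of TGFb with FB, were among the 4 highest or 4 lowest log2 fold changes of members that were called, did not overlap and reached a mean of 1 CPM in either group. TIMP1, TIMP2, ADAMTS5, ADAMTS15, the gelatinase MMP2 and the collagenase MMP14 were added. Of each gene list up to 4 members with the lowest p are named, and any needed to describe a small count. Gene order was taken from the RefSeq table of the cat (F.catus_Fca126_mat1.0), from which no coordinates were used.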

Additional observations from a re-analysis of the deposited data

Results flagged for a closer look

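In 135 groups of 5 libraries (27 members in 5 groups), 21 held a library whose gap to the nearest other exceeded Dixon's 95% critical value. For normally distributed values chance alone exceeds it in about 1 in 20 groups. The values here are CPM and some groups are mostly at 0, so the 21 cannot be set against that rate. UK replicate 5 accounts for 8 of the 21. It was low for MMP2 (2080 CPM, the other UK libraries at 4610 to 5010), MMP14 (386, others 715 to 784), MMP19 (15.8, others 36.7 to 40.5) and ADAM11 (0.366, others 1.13 to 1.27). It was high for TIMP1 (3130, others 1060 to 1260), TIMP2 (2230, others 961 to 1010), MMP23 (16.5, others 4.98 to 7.27) and MMP10 (0.732, others 0.0547 to 0.206). The low MMP2 and MMP14 stood beside high TIMP1 and TIMP2 in that library.

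TrogGW replicate 1 was low for ADAMTS1 (158 CPM, others 194 to 207) and ADAMTS4 (20.8, others 31.3 to 34) and high for MMP23 (0.575, others 0.254 to 0.333). TrogGW replicate 4 was low for MMP11 (7.15, others 9.96 to 10.4) and TIMP1 (1840, others 2230 to 2350). FB replicate 2 was low for ADAMTS2 (264, others 287 to 296), ADAM8 (1.31, others 2.44 to 2.72) and MMP17 (0.151, others 0.47 to 0.55). FB replicate 4 was high for ADAMTS12 (21.9, others 15.3 to 17.2), and FB replicate 5 was high for ADAM23 (0.33, others 0.0504 to 0.119) and low for ADAM11 (0.055, others 0.209 to 0.252). Single high values of few counts were MMP10 in TGFb replicate 4 (0.224, others 0 to 0.0622) and ADAM23 in UK replicate 3 (0.103, others at 0).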

How the results depend on the processing

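Over other scalings, filters, tools and fits, the count of called members stayed within 1.5 times the main one in every comparison except UK against TGFb, with 32 called without UK replicate 5 and 21 with it. Leaving out 1 library at a time gave 30 to 33 called members in TrogGW against Trog, 25 to 39 in UK against Trog, 37 in TrogGW against TGFb, 19 to 32 in UK against TGFb, 31 to 33 in Trog against TGFb, 28 to 31 in TGFb against FB, 36 to 37 in TrogGW against FB, 19 to 28 in UK against FB and 33 to 36 in Trog against FB. In the fit of all 25 libraries, 7 substrates of ADAM10 and ADAM17 and 3 ADAMTS-like genes were called in TGFb against FB, against 12 and 5. With library totals alone the log2 fold change reversed for ADAM10 in UK against Trog (-0.15), for ADAMTS7 (0.51), ADAM10 (0.83) and ADAM12 (0.62) in TrogGW against TGFb, for ADAM9 (0.40), ADAMTS7 (0.61), ADAM10 (0.60), MMP24 (0.52) and MMP28 (0.38) in Trog against TGFb, for MMP19 (-0.33) and ADAM17 (-0.14) in TGFb against FB, for ADAMTS6 (0.09), ADAMTS7 (0.09), MMP2 (0.26) and MMP28 (0.02) in TrogGW against FB, and for ADAMTS7 (0.20) and TIMP2 (0.07) in Trog against FB. Without UK replicate 5 it reversed for TIMP1 in UK against Trog (-0.38, up to 0.16 with another library left out) and ADAM12 in UK against TGFb (0.24, down to -0.23 with another library left out). The cause was not tested.

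Over all genes, the fit of all 25 libraries called 4089 in TGFb against FB (7300 in the separate fit), 4620 in TrogGW against Trog (7434) and 5408 in UK against TGFb (3434), and without UK replicate 5 there were 7625 in UK against TGFb, 7914 in UK against Trog (4553) and 8317 in UK against FB (4242). Libraries of the same replicate number did not deviate together (correlations between -0.306 and 0.481), so the numbers were not taken as pairs, and with a replicate block 23 members were called in UK against Trog (28 without it), 18 in UK against TGFb (21) and 17 in UK against FB (22). Calls kept in every alternative run numbered 25 of 31 in TrogGW against Trog, 20 of 28 in UK against Trog, 29 of 37 in TrogGW against TGFb, 18 of 21 in UK against TGFb, 24 of 32 in Trog against TGFb and 23 of 30 in TGFb against FB. At 14.8 to 25.2 M counts per library, the 16 members below the filter were not tested.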
